A study of Homo sapiens with 6 samples.

Results

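The genes described here lie side by side on the long arm of human chromosome 6, from 6q21 to 6q23. Members are all genes whose start in RefSeq's GRCh38.p14 annotation falls between 109.4 and 132.6 Mb and that are measured by a probe set carrying that single gene symbol. By this rule 107 of the 19775 genes with such a probe set belong to the region, measured by 230 probe sets with 1 to 5 per gene. PKIB, MAN1A1 and CCN2 lie inside the interval but are left out by the rule. The first member by position is SMPD2 and the last is TAAR5, so that 3 genes precede AK9 and 3 follow STX7. The interval was selected on the M5 minus SW480 differences of these same arrays, which were already known, and within it genes were chosen by position alone. The differences between the populations are therefore a description, with no test.

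Total RNA of SW480 cells, a human colorectal cancer cell line, and of M5 cells was hybridised to arrays that report 1 signal per probe set. M5 is a subpopulation of SW480 that was selected in a living animal for its raised ability to metastasise to liver. The labels give neither the host nor the number of selection rounds, and M5 stands for 1 such subpopulation. Both populations were grown in the same serum-supplemented medium with antibiotics, without further treatment, and each was measured on 3 arrays labelled as biological replicates. Whether these came from separate cultures is not stated, so that standard errors (SE) measure only the spread between these arrays.

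Before scaling, the 2% trimmed mean signal of the arrays ranged from 20.9 to 86.4, and replicate 1 of each population was the dimmest array of its group. All signals below are on a linear scale after the distributions of the arrays were made equal. M5 replicates 2 and 3 were far closer to each other than any other pair of arrays, with a median absolute log2 difference of 0.087 over 5462 bright probe sets against 0.222 to 0.367 for the other 14 pairs. The next closest pair was replicate 1 of both populations, at 0.222, and SW480 replicate 1 stood farther from the other SW480 arrays, at 0.327 and 0.340. For means and standard deviations (SD) the pair is therefore taken as a single sample, which makes n 3 for SW480 and 2 for M5. An 18S ribosomal RNA control was low on SW480 replicate 3 and on M5 replicates 2 and 3, and high on the other 3 arrays. The epithelial genes EPCAM, KRT8, KRT18, KRT19 and CDH1 had signals of at least 262 on every array, while the intestinal genes CDX1, CDX2, GPA33 and CDH17 stayed at or below 13.4. The other intestinal genes listed passed the filter on low signal, with 23.7 to 57.5 for KRT20, 4.75 to 66.4 for LGALS4 and 6.17 to 17.0 for VIL1. Of the listed fibroblast, endothelial, leukocyte and hepatocyte markers, 6 of 8, 1 of 5, 2 of 5 and 5 of 6 measured genes passed the filter. Their summed signals ranged from 228 to 357 in SW480 and 179 to 224 in M5 for fibroblast, 13.9 to 37.8 and 21.2 to 37.7 for endothelial, 25.8 to 104 and 82.6 to 179.9 for leukocyte, and 74.9 to 301 and 87.2 to 350 for hepatocyte markers. After scaling no marker had a signal of 0 on any array, which does not tell whether a deposited value was 0. The part of these markers in the results was not tested.

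Genes that neighbour each other on a chromosome share its copy number, and the transcript level of each also depends on its own promoter and on the factors that bind it. Losses within 6q are recorded in several kinds of cancer. The region holds genes of many unrelated functions, among them kinases and phosphatases, chromatin regulators, ubiquitin ligases, laminin chains and the gap junction protein connexin 43. DNA copy number is not part of the data analysed here.

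Of the 107 genes, 72 passed the filter, set at the mean signal below which 40% of probe sets lie. Among these, 4 (GPR6, FABP7, LOC102723409 and TMEM200A) had a mean below the filter value of 6.69 in 1 of the populations, so that their differences rest in part on which group was bright enough. The mean signals of the 72 ranged from 6.93 to 1559 with a median of 67.6, against a median of 57.9 over all 14251 genes kept. The other 35 genes had mean signals between 0.686 and 6.25. They include the receptor kinase gene ROS1, the arginase gene ARG1, the Wnt agonist gene RSPO3, the Notch target HEY2, the cardiac genes PLN and TRDN, the T cell gene THEMIS and all 3 measured trace amine receptor genes. For 7 of the 35, ARG1 among them, the mean of 1 population lay above the filter value. With no detection calls in the table, these values set no level.

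On the log2 scale, M5 minus SW480 was below 0 for 48 of the 72 genes, or 66.7%, against 50.6% of all genes kept. The median difference of the region was -0.23, with quartiles of -0.52 and 0.11. Over all genes the median was -0.01 with quartiles of -0.34 and 0.31. Differences below -0.5 were measured for 19 genes, or 26.4% against 16.9% of all genes, and above 0.5 for 7 genes, or 9.72% against 16%. All 3 M5 arrays lay below all 3 SW480 arrays for 17 genes, where 8.38% of all genes have that order. The reverse order was found for 1 gene, SLC35F1, where 7.72% of all genes have it. In the limma fit over the whole table, 0 of the 72 genes passed an adjusted p of 0.05 in either direction, while 0.0912% of all genes were called lower and 0.0982% called higher. At an unadjusted p of 0.05 the same limma fit gave 14 region genes lower and 1 higher, beside 6.22% and 5.45% of all genes. This fit and its SEs take M5 replicates 2 and 3 as separate arrays. With the pair averaged, limma gave 9 lower and 0 higher at that unadjusted p, for which no share of all genes is given. Since the interval was proposed from this contrast, nothing is read from these counts.

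**Figure D1:**
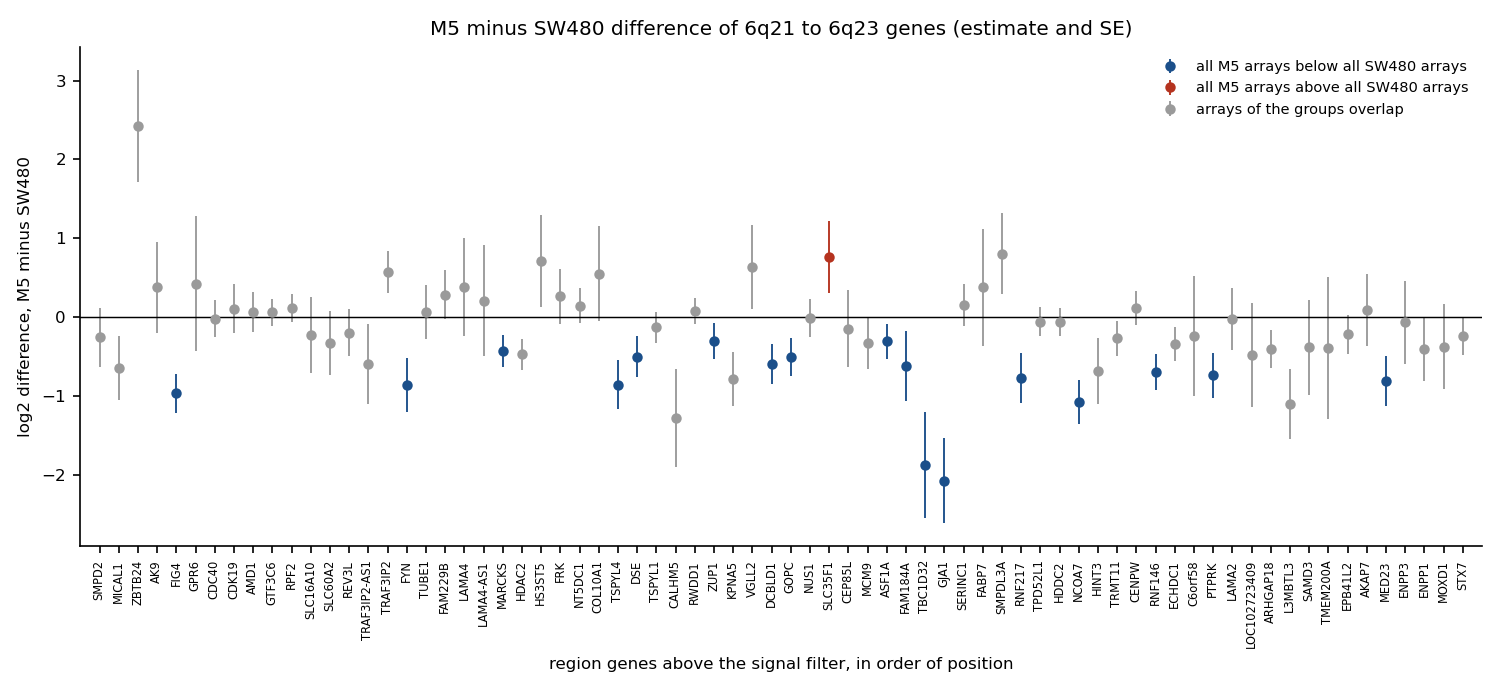
Log2 difference of M5 minus SW480 (points, with SE as bars) for the 72 region genes above the signal filter, in order of position from SMPD2 to STX7. Blue marks the 17 genes whose M5 arrays all lie below the SW480 arrays, red the 1 gene with the reverse order, and grey the genes whose groups overlap.

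The connexin and cilium genes near the middle of the interval stood lowest. GJA1, which encodes connexin 43, the main gap junction channel of many tissues, had signals of 22.8, 45.1 and 122 on SW480 replicates 1, 2 and 3 and of 11.4, 8.62 and 12.5 on M5 replicates 1, 2 and 3. The groups did not overlap, but the SW480 arrays differed from each other by more than the lowest of them differed from M5. SW480 averaged 63.4 ± 52.3 (SD, n = 3). M5 averaged 11.0 ± 0.595 (SD, n = 2), and the log2 difference was -2.07 (SE 0.53). TBC1D32, a gene needed for the assembly of primary cilia, had 11.2, 37.7 and 33.8 in SW480 and 9.07, 10.6 and 1.12 in M5, in replicate order as in all values that follow. SW480 replicate 1 was here almost as low as M5, and the log2 difference of -1.87 (SE 0.68) came from the brighter arrays. A second probe set of TBC1D32 had 12.8, 20 and 23.6 against 1.43, 4.50 and 2.43, without overlap. In the list of junction, channel and transporter genes, 3 of 7 were kept. SLC16A10, a transporter of aromatic amino acids, had a log2 difference of -0.22 (SE 0.48) on its brightest probe set. Its second kept probe set had 3.43, 36.4 and 22.5 in SW480 and 1.97, 0.80 and 1.05 in M5, a difference of -2.52 (SE 0.87). SLC35F1 had a difference of 0.77 (SE 0.45) from signals of 8.32 to 9.80 in SW480 and 13.5 to 19.0 in M5, near the bottom of the scale.

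Among 13 genes of kinases, phosphatases and signalling adaptors, 11 were kept, of which 6 lay below 0 and 5 above, with a median of -0.40. FIG4, a phosphatase of the phosphoinositides that control endosome traffic, had signals of 153, 170 and 150 in SW480 and 99.1, 72.8 and 71.0 in M5. Every M5 array lay well below the narrow SW480 range, and the log2 difference was -0.96 (SE 0.25). PTPRK, a receptor tyrosine phosphatase found at cell contacts, had 141, 225 and 304 against 118, 135 and 130. Its groups did not overlap, though SW480 replicate 1 came close to M5, and the difference was -0.73 (SE 0.28). FYN, a kinase of the Src family, had 113, 90.5 and 77.2 against 69.8, 58.8 and 31.1 on its brightest probe set, a difference of -0.86 (SE 0.34). Of the other 3 kept FYN probe sets, all with mean signals far lower, 1 pointed the same way and 2 the opposite way.

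MARCKS, a substrate of protein kinase C that binds actin and membranes, had 442, 443 and 654 in SW480 and 388, 387 and 352 in M5. All 5 of its probe sets were below 0, with a difference of -0.42 (SE 0.21) on the brightest. ARHGAP18, which switches off the small GTPase RhoA, was the brightest gene of the region, at 1235, 1928 and 2170 against 1776, 1159 and 1086. The groups overlapped: M5 replicate 1 was above SW480 replicate 1, whereas M5 replicates 2 and 3 were below all SW480 arrays. Its difference was -0.40 (SE 0.24), and 1 of its 3 kept probe sets pointed up. In the other direction, TRAF3IP2, the adaptor ACT1 of interleukin-17 receptors, had 71.4, 73.0 and 107 against 104, 131 and 139, a difference of 0.58 (SE 0.27) with overlap of 1 array. FRK, a kinase related to Src, had a difference of 0.27 (SE 0.35), with a second, dimmer probe set at 1.02 (SE 0.51). CDK19, a kinase of the Mediator complex, had 0.11 (SE 0.31), with a second kept probe set at -0.35 (SE 0.42).

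In the list of transcription and chromatin genes, 10 of 11 measured members were kept, with 7 below 0, 3 above and a median of -0.39. NCOA7, a coactivator of nuclear receptors with a part in oxidation resistance, had signals of 245, 168 and 347 in SW480 and 116, 122 and 108 in M5. The M5 arrays were tightly grouped below all SW480 arrays, and the difference was -1.07 (SE 0.28). L3MBTL3, a reader of methylated lysines in chromatin, had 29.0, 102 and 56.9 against 18.9, 32.3 and 25.5. M5 replicate 2 exceeded SW480 replicate 1, and the difference was -1.09 (SE 0.44). MED23, a Mediator subunit, had 73.5, 89.1 and 95.4 against 63.9, 52.3 and 33.5, without overlap, and a difference of -0.80 (SE 0.31). Of its 5 kept probe sets 3 were below 0.

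HDAC2, a histone deacetylase, had signals of 764, 943 and 1023 in SW480 and 803, 602 and 574 in M5. M5 replicate 1 lay inside the SW480 range and the other M5 arrays below it, which gave a difference of -0.47 (SE 0.19). The histone chaperone gene ASF1A had a difference of -0.30 (SE 0.22), without overlap, at 175, 183 and 238 against 156, 156 and 166. GTF3C6, a subunit of the RNA polymerase III factor TFIIIC, was even on all arrays, at 476 to 554, with a difference of 0.06 (SE 0.17), and CENPW, a centromere protein gene, had 0.12 (SE 0.22).

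The highest difference of the region was that of ZBTB24, a zinc finger gene needed for DNA methylation at pericentromeric repeats. Its brightest probe set had 16.1, 21.6 and 10.6 in SW480 and 19.5, 192 and 190 in M5. Only M5 replicates 2 and 3 were high, and M5 replicate 1 was inside the SW480 range. The log2 difference of 2.43 had an SE of 0.71. A second ZBTB24 probe set showed the same order, with 7.60, 55.0 and 70.4 in M5 and at most 14.7 in SW480. The third did not, at 53.1, 47.4 and 56.3 in M5 and 31.3, 83.2 and 59.3 in SW480. Without M5 replicate 2 or 3, or with these averaged, the third probe set was the brightest of the gene, and the difference was 0.02, -0.10 and -0.04.

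**Figure D2:**
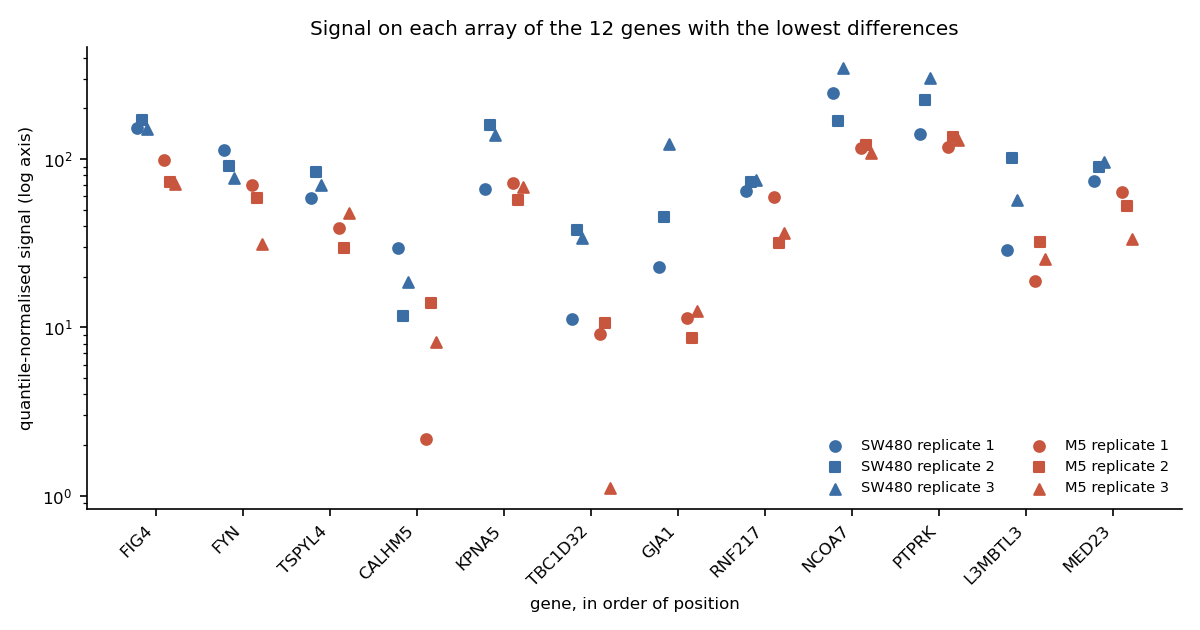
Quantile-normalised signal (log axis) on each of the 6 arrays for the 12 region genes with the lowest M5 minus SW480 differences, in order of position, with SW480 in blue, M5 in red and the replicate given by the marker. GJA1 spreads from 22.8 to 122 among the SW480 arrays. The groups overlap for CALHM5, KPNA5 and L3MBTL3 and are separate for the other genes shown, GJA1 included.

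Of the 9 measured genes of protein modification and membrane traffic, all were kept, with 7 below 0 and a median of -0.23. RNF146, the ubiquitin ligase that recognises poly-ADP-ribosylated proteins such as axin, had signals of 149, 152 and 177 in SW480 and 93.4, 101 and 99.6 in M5. Both groups were narrow and apart, and the difference was -0.69 (SE 0.23). Both RNF146 probe sets lay below 0. GOPC, a Golgi protein with a PDZ domain, had 114, 138 and 141 against 93.8, 95.6 and 86.0, a difference of -0.50 (SE 0.24), with 4 of 5 probe sets below 0. RNF217, another ubiquitin ligase gene, had 64.8, 72.6 and 75.1 against 59.7, 31.6 and 36.1 (-0.76, SE 0.32) and a second kept probe set that pointed up. KPNA5, an importin that carries proteins into the nucleus, had 66.1, 159 and 138 against 71.6, 57.0 and 67.9. SW480 replicate 1 lay among the M5 arrays, and the difference was -0.78 (SE 0.34), with all 3 probe sets below 0. RWDD1 at 622 to 730 and TPD52L1 at 426 to 596 had differences of 0.08 (SE 0.17) and -0.05 (SE 0.19), and the endosomal syntaxin gene STX7 one of -0.23 (SE 0.24).

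All 5 genes of DNA replication, repair and RNA processing were kept, and their differences ranged from -0.33 for MCM9, a helicase of homologous recombination, to 0.12 for RPF2, a factor of large ribosomal subunit assembly. RPF2 had signals of 819, 907 and 1105 in SW480 and 1054, 1128 and 886 in M5, with SE 0.18. REV3L, the catalytic subunit of DNA polymerase zeta, had -0.20 (SE 0.30), the splicing factor gene CDC40 -0.02 (SE 0.24) and the transfer RNA methyltransferase gene TRMT11 -0.27 (SE 0.23). The groups overlapped for each of the 5. The second kept probe sets of MCM9 and CDC40 had 0.46 (SE 0.84) and 0.41 (SE 0.29).

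Metabolic genes were divided evenly, with 5 of 10 kept genes on each side of 0 and a median of 0.01. AMD1, the decarboxylase that supplies polyamine synthesis, had 316, 497 and 399 in SW480 and 297, 540 and 449 in M5 (0.07, SE 0.26). HDDC2 and ECHDC1, the brightest of the list, had differences of -0.05 (SE 0.18) and -0.33 (SE 0.22). SMPDL3A, a phosphodiesterase related to acid sphingomyelinase, had 11.4, 16.1 and 36.6 against 17.1, 49.2 and 48.2 (0.80, SE 0.51), with overlap.

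For extracellular matrix and cell surface genes, 7 of 9 were kept, 4 below 0 and 3 above, with a median of -0.02. DSE, the epimerase that turns chondroitin sulfate into dermatan sulfate, had 109, 120 and 164 in SW480 and 86.4, 101 and 85.8 in M5, without overlap (-0.50, SE 0.26). The laminin genes LAMA2 and LAMA4 had differences of -0.02 (SE 0.39) and 0.39 (SE 0.62). The other 2 kept probe sets of LAMA2 had 0.46 (SE 0.50) and 1.12 (SE 0.68), and the mean of its probe sets gave 0.52. Beside them, the collagen gene COL10A1 and the sulfotransferase gene HS3ST5 had 0.55 (SE 0.60) and 0.71 (SE 0.58). COL10A1 signals were 57.5, 15.2 and 6.75 in SW480, a spread wider than the difference between the populations. The neighbouring phosphodiesterase genes ENPP1 and ENPP3 had -0.40 (SE 0.40) and -0.06 (SE 0.53). Cytoskeleton and cilium genes had a median of -0.42 over 6 kept of 7, with 5 below 0. Beside TBC1D32, that list has EPB41L2, a membrane skeleton protein of the 4.1 family, at 184, 142 and 193 against 119, 146 and 185 (-0.21, SE 0.25). Of the 32 members in no list, 12 were kept, 9 of them below 0. The lowest was the channel gene CALHM5 at 29.5, 11.6 and 18.7 against 2.17, 14 and 8.15 (-1.27, SE 0.62), with a second kept probe set at 0.24 (SE 0.85), and the highest VGLL2, a cofactor of TEAD factors, at 0.64 (SE 0.53).

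Several members start back to back, with their transcripts running away from each other from a short stretch between their starts. Such divergent pairs let the differences of genes that share their upstream DNA be set side by side. By RefSeq's promoter table for GRCh38.p14, which holds 94 of the 107 genes, 5 pairs of members start within 1000 bases of each other on opposite strands, and SERINC1 pairs with the left-out gene PKIB in the same way. The bases between the starts are shown for 5 of these pairs, leaving out SAMD3 and TMEM200A, whose mean signals are both near the filter. They are given 5′ to 3′ on the plus strand. Capitals mark a CCAAT box (CCAAT, or ATTGG on the other strand) or GC box (GGGCGG, or CCGCCC on the other strand).
AK9 and FIG4, chr6:109691203-109691295: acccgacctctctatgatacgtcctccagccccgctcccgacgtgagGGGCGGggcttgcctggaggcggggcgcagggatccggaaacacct
TUBE1 and FAM229B, chr6:112087483-112087590: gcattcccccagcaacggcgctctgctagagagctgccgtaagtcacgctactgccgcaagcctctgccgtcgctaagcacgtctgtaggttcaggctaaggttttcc
TSPYL4 and DSE, chr6:116254076-116254170: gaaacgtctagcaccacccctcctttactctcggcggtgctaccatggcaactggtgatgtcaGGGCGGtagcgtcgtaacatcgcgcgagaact
TSPYL1 and DSE, chr6:116279931-116280085: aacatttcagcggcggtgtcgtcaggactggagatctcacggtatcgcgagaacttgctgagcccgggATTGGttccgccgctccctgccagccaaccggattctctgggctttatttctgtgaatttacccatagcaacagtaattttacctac
SERINC1 and PKIB, chr6:122471808-122471920: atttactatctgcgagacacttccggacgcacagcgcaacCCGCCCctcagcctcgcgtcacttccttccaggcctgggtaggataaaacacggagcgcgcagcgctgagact

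A GC box was found between AK9 and FIG4, between TSPYL4 and DSE and between SERINC1 and PKIB, and a CCAAT box between TSPYL1 and DSE. In windows of the same lengths directly upstream of all 35116 promoter entries, 30.2%, 30.5% and 33.1% held the GC box and 24.0% the CCAAT box on either strand. The motifs did not overlap each other. The stretch between TUBE1 and FAM229B held neither, and the letters TATAAA were found in none of the 5. The stretch between SAMD3 and TMEM200A, not shown, held 3 GC boxes and 1 CCAAT box. In windows of its length, 36.6% of promoter entries held the GC box and 23.3% the CCAAT box.

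The values of the partners are set side by side here. FIG4 had -0.96 (SE 0.25) on its only probe set. For AK9, an adenylate kinase whose start is 94 bases away, the probe sets disagreed. The brightest had 0.38 (SE 0.57) at low signals of 6.85, 19.0 and 25.1 in SW480 and 8.93, 29.8 and 29.6 in M5, and the other kept one -1.03 (SE 0.60), so that how AK9 stands to FIG4 is not settled. SERINC1, a membrane protein gene of the serine incorporator family, had 482, 368 and 577 in SW480 and 345, 613 and 672 in M5, with overlap and a difference of 0.16 (SE 0.27). Its partner PKIB, 114 bases away, had 1163, 1654 and 1601 against 116, 265 and 227, a difference of -2.91 (SE 0.29). PKIB encodes an inhibitor of protein kinase A. The table lists starts of DSE beside both TSPYL4 and TSPYL1, and the probe sets do not tell from which start a transcript came.

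In the other pairs the partners were closer to each other than SERINC1 and PKIB. TSPYL4, a gene of the nucleosome assembly protein family, had signals of 59.0, 83.3 and 69.6 against 39.0, 29.5 and 47.6, without overlap, and a difference of -0.85 (SE 0.31) beside -0.50 (SE 0.26) for DSE. TSPYL1, which faces a later start of DSE, had 404, 594 and 537 against 477, 448 and 462 and a difference of -0.13 (SE 0.20). TUBE1, the gene of epsilon-tubulin, and FAM229B had 0.07 (SE 0.34) and 0.29 (SE 0.31). SAMD3 and TMEM200A, which start 149 bases apart, had -0.38 (SE 0.60) and -0.39 (SE 0.90) at signals near the filter.

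Promoters of the region were somewhat poorer in CpG than those of other genes, a feature that the choice of the interval did not use. Over the 250 bases upstream of 64 kept members with an entry, the median GC content was 59.2% (quartiles 49.1% and 69.3%), against 64.4% (56.4% and 71.6%) for all 11386 kept genes. For 30 members below the filter it was 42.0%, against 55.2% for all 3971 such genes. The ratio of observed to expected CpG reached 0.6 in 41 of the 64 kept members, or 64.1% against 74.4% of all kept genes, and in 6 of the 30 others, or 20% against 35.7%. These are descriptions and were not tested.

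By position, the median difference was above 0 before 115 Mb and below 0 in each stretch after it. Before 115 Mb, from SMPD2 to HS3ST5, 11 of 24 kept genes were below 0 with a median of 0.07. From 115 to 120 Mb, from FRK to FAM184A, 13 of 19 were below 0 with a median of -0.30. Between 120 and 125 Mb only 6 genes were kept, 3 on each side, and these include both GJA1 and SMPDL3A. From 125 to 130 Mb, 12 of 13 were below 0 (median -0.33), CENPW being the exception, and from 130 Mb to the end 9 of 10 (median -0.38), with AKAP7 as the exception. All M5 arrays lay below all SW480 arrays for 3, 7, 3, 3 and 1 genes of these stretches, from first to last. Over all genes kept, 8.38% had that order. The median signals of the stretches were 72.9, 93.2, 33.4, 184 and 30.4. The longest unbroken stretch below 0 had 11 genes, from RNF146 to EPB41L2, and the longest above 0 had 4. The former includes LAMA2 at -0.02 (SE 0.39). With the mean of kept probe sets LAMA2 had 0.52 and ARHGAP18 0.01, so that this stretch depends on the choice of probe set. Of 71 pairs of kept neighbours, 47 had the same sign, with no such count over all genes beside it.

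No test was made for a step at the edges, where single genes varied. The last kept genes before the interval, CEP57L1, CD164 and PPIL6, had differences of -0.10, -0.16 and -0.65, and the first inside, SMPD2 and MICAL1, had -0.25 and -0.64, before ZBTB24. Inside the far end, ENPP1, MOXD1 and STX7 had -0.40, -0.37 and -0.23, and the first kept genes beyond it, VNN3P, SLC18B1 and RPS12, had 0.65, -0.59 and 0.02. The genes left out by the rule had -1.81 (MAN1A1), -2.91 (PKIB) and 2.07 (CCN2).

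By median difference and by share below 0, the rest of chromosome 6 lay between the region and the other chromosomes. The median difference was -0.10 over 105 genes of 6q before the interval, -0.10 over 129 genes after it and -0.07 over 446 genes of 6p, against 0.00 over 13480 genes of other chromosomes. The shares below 0 were 57.1%, 59.7%, 53.8% and 50.2%. Groups with all M5 arrays below all SW480 arrays were found for 12.4% of genes before and 16.3% after the interval, 7.17% on 6p and 8.20% on other chromosomes. By this measure 6p did not lie between. On replicate 1 of each population alone, 6q before the interval did not either, with a median of 0.07 against -0.005 on other chromosomes. There 6q after the interval had -0.11 and 6p -0.08. Running medians over 25 neighbouring kept genes ranged from -0.40 to 0.11 for windows centred on members, with the lowest at HDDC2, and from -0.35 to 0.35 elsewhere on chromosome 6. The windows also hold the genes left out by the rule, and those near the edges hold genes from both sides.

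**Figure D3:**
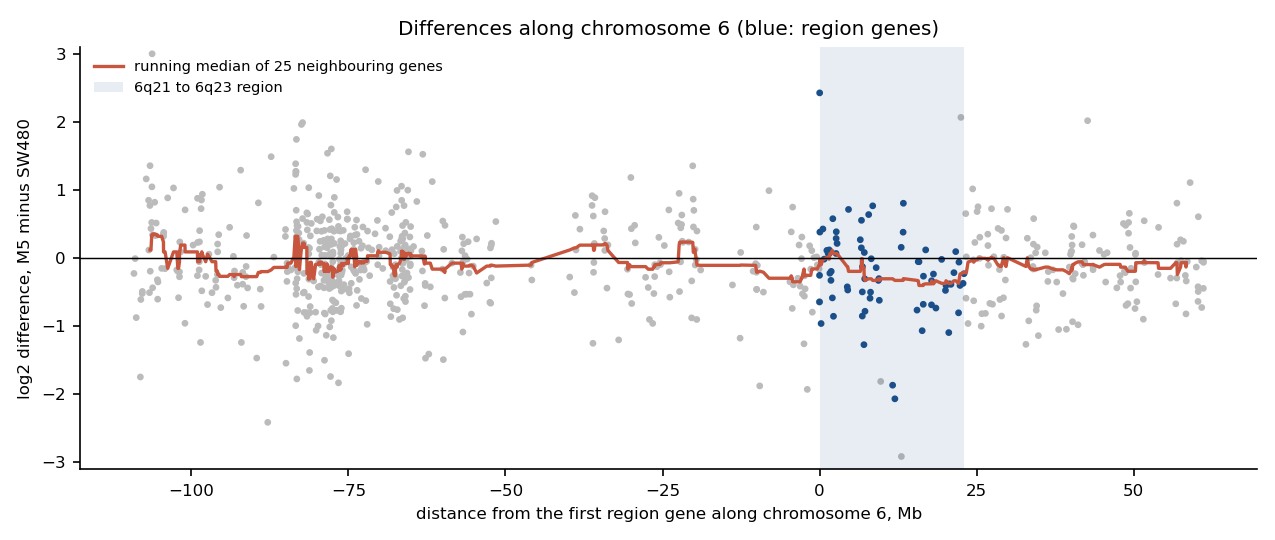
Log2 difference of M5 minus SW480 for 755 kept genes of chromosome 6 against their distance in Mb from the first gene of the interval; blue points are region genes, grey points the others, and values beyond 3 in size are drawn at 3. The red line, a running median over 25 genes, lies below 0 for 60 of the 72 windows centred on region genes. Neighbouring windows share most of their genes, so that these are not separate observations.

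The arrays of a population did not all share the pattern. As the median deviation of the 72 genes from their own means over the 6 arrays, SW480 replicates 1, 2 and 3 stood at -0.05, 0.07 and 0.31 and M5 replicates 1, 2 and 3 at -0.15, -0.10 and -0.13. The M5 arrays were alike and below every SW480 array, while SW480 replicate 3 stood far above the other SW480 arrays. The same array was also highest among SW480 arrays for 6q before (0.22) and after (0.18) the interval, but not for 6p (0.02). Without SW480 replicate 3, 41 of 71 region genes (57.7%) were below 0, against 50.1% of all genes, and the median was -0.17. Limma's unadjusted p was then under 0.05 for 6 lower and 3 higher region genes, beside 14 and 1 in the main fit. Over the whole table, limma's calls at an adjusted p of 0.05 fell as well, from 27 to 10. A count of 6 lower region genes was also found without SW480 replicate 2 and without M5 replicate 3. Those fits called 9 and 6 genes of the whole table. No share of all genes at that p is given for these fits, so nothing is read from these counts. Within the arrays of high 18S control signal the median of the region was -0.21, and within those of low signal, where SW480 replicate 3 is the SW480 array, it was -0.42. Over all genes these medians were 0.00 and -0.02. With the high or low 18S class as a block in the fit, the region's median was -0.30. In that fit 75% of region genes were below 0, against 51.7% of all genes, and 0 were called. What sets the 18S signal, and its part in the result, was not tested.

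**Figure D4:**
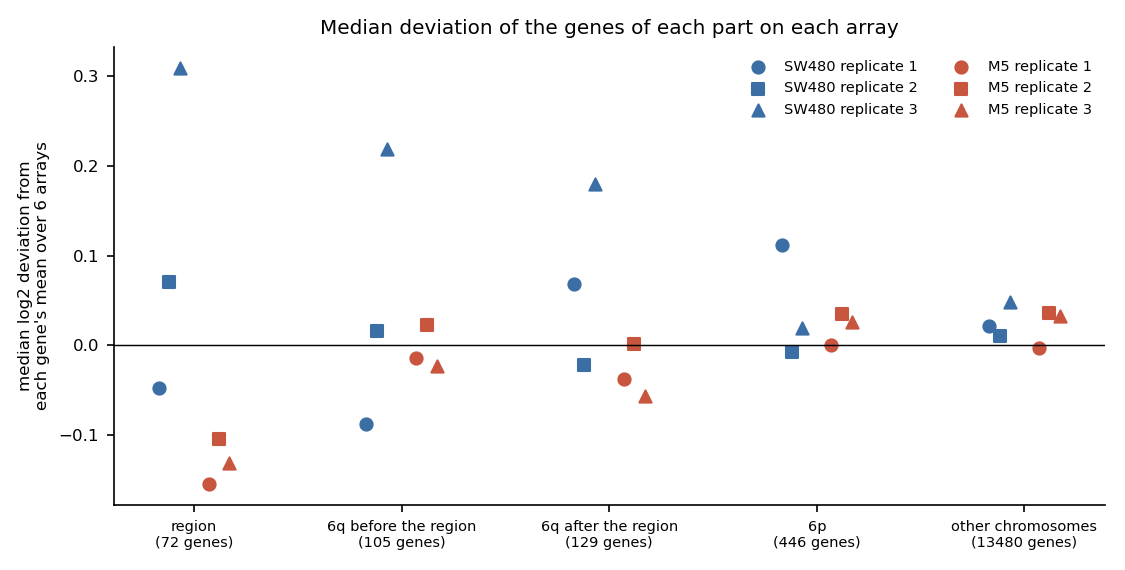
Median log2 deviation on each array (blue SW480, red M5, marker by replicate) of the kept genes of the region and of 4 other parts of the genome. In the region the M5 arrays lie between -0.15 and -0.10 and the SW480 arrays between -0.05 and 0.31, and on other chromosomes all 6 arrays lie near 0.

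The dimmer pair, replicate 1 of each population, showed less of a shift than the other arrays. M5 replicate 1 minus SW480 replicate 1 was below 0 for 41 of 72 genes, with a median of -0.16, against 50.5% and -0.01 over all genes. On the brighter arrays 48 of 72 were below 0, with a median of -0.26, against 48.7% and 0.02. In both sets 29 genes, or 40.3%, were below 0, where 25% of all genes were, and 12 genes, or 16.7%, were above 0 in both, against 25.7%. NCOA7 had the same difference in both sets, -1.07, and RNF146 had -0.66 on the dimmer pair and -0.70 on the others. FIG4 had -0.62 and -1.13 and GJA1 -0.90 and -2.65. ARHGAP18 had opposite signs, 0.52 and -0.87, and HDAC2 had 0.07 and -0.74. The low value of CALHM5 rested on the dimmer pair, with -3.01 against -0.40, and the high value of ZBTB24 on the brighter arrays, with 0.26 against 3.51.

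**Figure D5:**
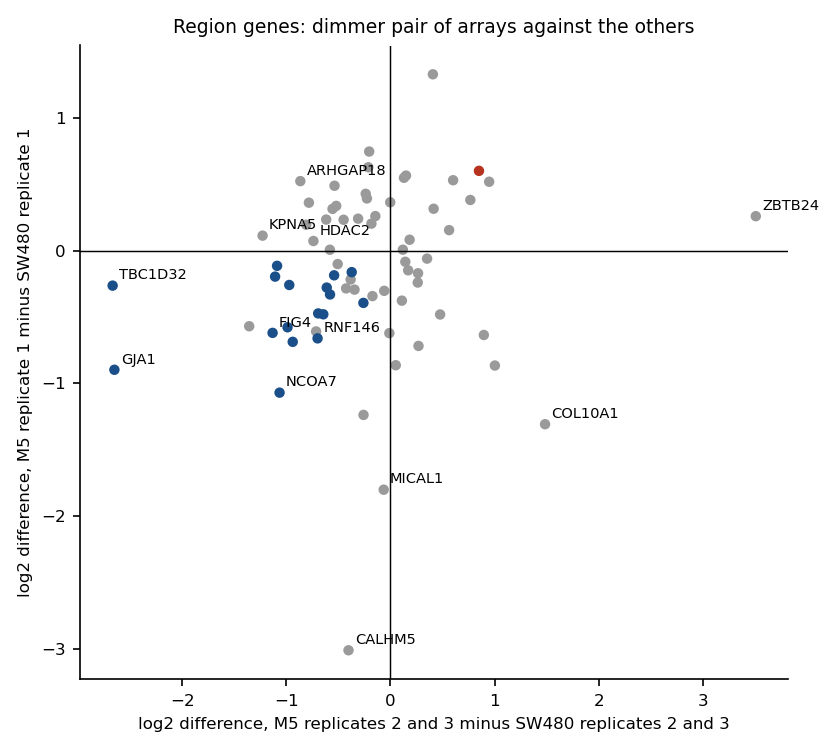
Log2 difference between M5 replicate 1 and SW480 replicate 1 (vertical axis) against that between replicates 2 and 3 of the populations (horizontal axis) for the 72 region genes; blue points have all M5 arrays below all SW480 arrays, the red point the reverse and grey points overlap. In all, 29 genes lie in the lower left corner, among them GJA1, NCOA7, FIG4 and RNF146.

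By brightness, the counts of values below 0 are again a description. Of 24 kept members with a mean signal under 30, 14 were below 0 (58.3%, against 49.6% of all genes at that level), of 19 with signals from 30 to 100, 13 (68.4% against 52.0%), and of 29 with signals of 100 or more, 21 (72.4% against 50.6%). The median SE fell along these classes from 0.58 to 0.34 and 0.23, so that the brightest members are the best measured. For 40 kept members measured by more than 1 kept probe set, all probe sets had the same sign in 14, and among the 31 of these below 0, in 12. A single probe set is thus a limited measure of many of these genes.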

How the data were processed

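Intensities of 6 arrays were used as the authors deposited them, on a linear scale, from a program that is, per the submitters' processing notes, GCOS 1.4. How it was set is not given in the sources used here. Of 54675 probe sets, 62 controls were left out, and 41091 with 1 symbol in the platform annotation named genes. All arrays were quantile normalised, and log2(signal + 1.7) was fitted with limma 3.58.1 (R 4.3.3; intensity trend, two-sided, Benjamini-Hochberg over 14251 genes, each by its brightest kept probe set). The pseudocount is the 20th percentile of all values. Fold changes on this scale understate differences of dim genes. The scripts were tested on simulated data.

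The members, role lists and tests were chosen with earlier results of these data known. Genes named are the 12 lowest and 8 highest differences among members brighter than the median probe set, the 2 brightest kept of each role list and the divergent pairs; others are named after their values were seen. No microRNA or protein sequence was used. Alternatives changed scaling, pseudocount, filter, variance model, probe set choice, blocks and arrays.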

Additional observations from a re-analysis of the deposited data

How the results depend on the processing

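The limma fit called 27 genes of the whole table and 0 of the region. Over the whole table it called 9 without scaling between arrays, 14 with arrays centred on the median, 15 with a stricter filter, 0 without the intensity trend, 16 with the mean of kept probe sets and 5 with M5 replicates 2 and 3 averaged. With the dimmest array of each population left out, 1664 of 14172 genes were called, 921 (6.5%) lower and 743 (5.24%) higher. Of 71 region genes 13 were called lower (among them GJA1, FIG4, PTPRK and HDAC2) and 1, ZBTB24, higher. Here, and without M5 replicate 1, the M5 arm is replicates 2 and 3 alone, which count as 1 sample, so these calls say nothing about spread within M5. Leaving out single arrays gave 3 to 297 calls, the highest without M5 replicate 1 and 175 without SW480 replicate 1. In the region these gave 0 to 1 lower genes (GJA1 without SW480 replicate 1, FIG4 without M5 replicate 1) and 0 to 1 higher (ZBTB24 without M5 replicate 1). Each of these 2 fits kept 73 region genes. Of all genes, 0.457% were called lower without SW480 replicate 1. The fit without M5 replicate 1 called 1.26% of all genes lower and 0.821% higher, so nothing is read from these single calls. Without the intensity trend, 9 region genes were lower and 2 higher at limma's unadjusted p of 0.05, with no share of all genes given beside them. The cause was not tested. With a replicate block 29 genes were called, none in the region, and the region's median stayed at -0.23. Deviations of equally numbered arrays correlated at 0.11, 0.01 and 0.07, and no label ties the numbers to a shared culture or day. Both arrays numbered 1 were dim and high in the 18S control.

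Under the 18 alternatives the region's median ranged from -0.30 to -0.15. Each lay within 0.149 of the main value, the SD of the region's median between arrays of a population. By population this SD was 0.181 for SW480 and 0.026 for M5, with M5 replicates 2 and 3 as 1 sample. The alternatives refit the same arrays, so staying within 0.149 says little about stability. The share below 0 ranged from 57.7% to 75%. Without scaling, the median of all genes was 0.07 and that of the region -0.17. Of 40 named genes, 26 kept 1 sign under every alternative that gave a value. ZBTB24, AK9, ARHGAP18, COL10A1 and SERINC1 were among the other 14.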
